A study of Rattus norvegicus with 6 samples.

Results

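The 6 genes followed here are listed as markers of brain border macrophages: Mrc1, Siglec1, Pf4, Cd38, F13a1 and Stab1. The count table holds 16876 gene symbols and 5 of the 6 listed genes. Stab1 was not analysed here, and F13a1 was below the count filter, so that 4 genes were tested. The members were listed by name, and the list was chosen with earlier results of these data known.

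The libraries come from rat (Rattus norvegicus) cells labelled as primary cultured microglia. Per the labels' protocols, these cells grew in co-cultures and were detached by shaking. They were then kept for 24 h with IR-813, a near-infrared dye, or with PSNPs, polystyrene nanoplastics, in 3 libraries each. No genotype, strain, animal age or dose is given for either group, and the deposited tables name the IR-813 columns con. The study asks how PSNPs bear on behaviour and neuronal activity, and this comparison asks which transcripts differ between the 2 exposures. The comparison has no untreated group, and lower means lower with PSNPs than with IR-813 throughout. Nothing says that the replicates are separate cultures or animals, so p-values measure the spread between these libraries, which may be technical.

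Border macrophages sit in the meninges, around blood vessels and in the choroid plexus, outside the brain tissue that microglia occupy. Both depend on signals through the CSF1 receptor, and both express a shared set of phagocyte genes. Border macrophages are known for scavenger and lectin receptors, among them the mannose receptor Mrc1 and the sialic acid receptor Siglec1. In culture, microglia can also express some of these genes, so a transcript alone does not name the cell.

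Total counts lay between 19166605 and 22553507 per library. Levels are given as CPM, read counts scaled to library size. Across genes, which do not count as replicates, log CPM had a correlation of 0.995 between PSNPs replicates 1 and 2. It was 0.974 and 0.971 between these and PSNPs replicate 3, which stood apart. The summed level of 12 astrocyte markers lay from 6657 to 8463 CPM in the IR-813 libraries and from 7832 to 8780 CPM in the PSNPs libraries. The 22 genes shared by microglia and other brain macrophages, called core macrophage genes below, summed to 1946 to 2652 CPM and 1315 to 1849 CPM. They held 0.129 to 0.275% of the counts of a library. In every library the astrocyte markers, and the oligodendrocyte-lineage markers given below, summed higher than these genes. A difference given below can therefore not be placed in microglia alone.

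The cell type named by the list was only partly borne out by its defining markers. Mrc1 was well counted, with 345 to 2289 reads per library. In contrast, Cd163, a hemoglobin scavenger receptor of border macrophages, was listed at 0 in every library. A count of 0 in this table is not always absence of a transcript, since the collagen gene Col1a2 was also listed at 0 beside its partner Col1a1 at 324 to 1078 reads. Ms4a7 had 2 to 4 reads, and Lyve1, a hyaluronan receptor gene of perivascular macrophages, 21 to 34 reads. The genes are therefore described by name below and not as a cell population.

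Promoters of Mrc1 and Cd38 are shown because both genes were lower with PSNPs and both have an entry in the RefSeq promoter table of build GRCr8, which holds 4 of the 6 genes. Siglec1 and Pf4 have no entry in it. Each sequence is the 250 bases before the gene's start, 5′ to 3′ on the gene's strand. The counts rest on another build, mRatBN7.2. Capitals mark GAGGAA, the core of the site of the myeloid factor PU.1, read on either strand.
Mrc1 (chr17:82157475-82157724, plus strand): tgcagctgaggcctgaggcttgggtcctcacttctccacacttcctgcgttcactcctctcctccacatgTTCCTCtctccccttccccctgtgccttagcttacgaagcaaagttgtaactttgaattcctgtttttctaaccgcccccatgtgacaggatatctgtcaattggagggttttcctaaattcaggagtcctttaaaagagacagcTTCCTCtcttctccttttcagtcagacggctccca
Cd38 (chr14:71424506-71424755, minus strand): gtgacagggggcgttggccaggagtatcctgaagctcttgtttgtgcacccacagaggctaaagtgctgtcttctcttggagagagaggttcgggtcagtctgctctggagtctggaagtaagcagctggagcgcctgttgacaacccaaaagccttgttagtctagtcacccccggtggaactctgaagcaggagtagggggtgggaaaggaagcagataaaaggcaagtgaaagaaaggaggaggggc

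Mrc1 held 2 matches to GAGGAA, both on the opposite strand, starting 180 and 35 bases before the gene's start. Cd38 held none. In the table, 23.3% of 33469 promoters hold a match in a window of this length. The MAF letters TGCTGA (15.1% of promoters), an interferon response element core (3.41%), the C/EBP letters TTGCNNAA (9.22%) and the AP-1 site TGAGTCA (4.05%) were searched on both strands and matched neither window. No match overlapped another.

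All 4 tested genes were lower with PSNPs, against 20.1% of all tested genes called lower and 20.9% called higher. Siglec1 and Pf4 differed most, Mrc1 less and Cd38 least. Their median log2 fold change was −2.46, beside −0.01 over all 11679 tested genes. For each of the 4, every PSNPs library lay under every IR-813 library, which held for 31.4% of all tested genes, and the reverse for 30%. In bulk RNA, fewer cells of a type and less RNA per cell cannot be told apart.

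**Figure D1:**
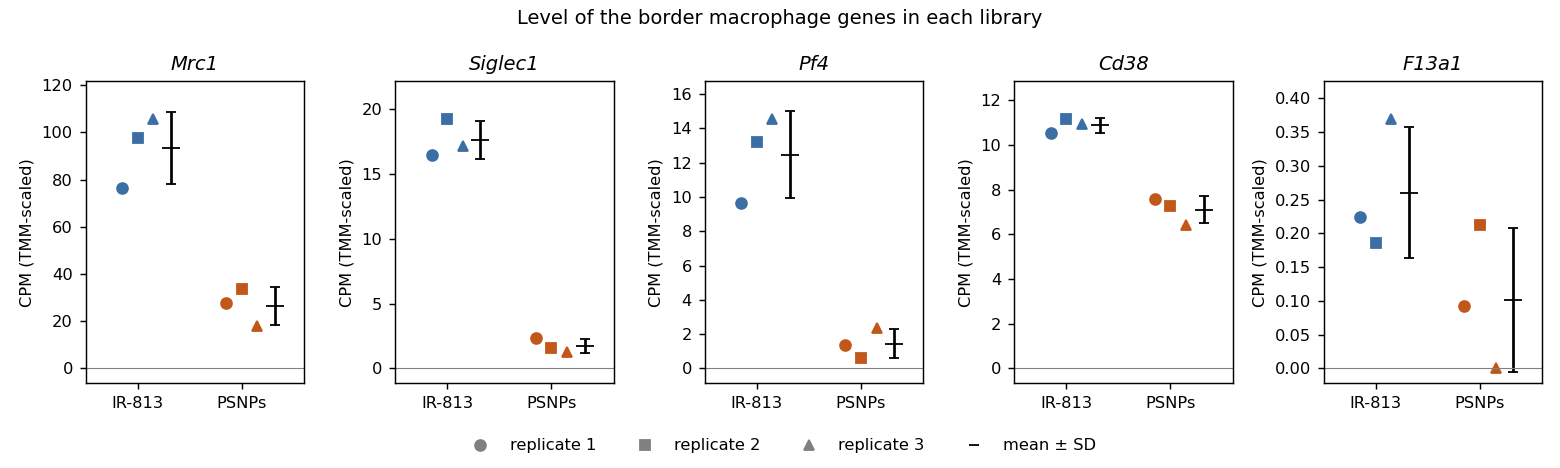
CPM on TMM-scaled library sizes (linear axes, one per gene) for the 5 listed genes in the count table; points are libraries, shaped by replicate, and bars are the mean ± SD of 3 libraries. The groups are apart for Mrc1, Siglec1, Pf4 and Cd38 and overlap for F13a1, which stays at or below 0.370 CPM.

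Of the receptors, Mrc1 encodes the mannose receptor CD206, a C-type lectin that takes up glycoproteins with mannose ends. It stood at 76.6, 97.6 and 106 CPM in IR-813 replicates 1 to 3 and at 27.7, 33.8 and 18.0 CPM in PSNPs replicates 1 to 3. The lowest IR-813 library was thus well above the highest PSNPs library, and PSNPs replicate 3 was the lowest of all. The mean fell from 93.4 ± 15.1 to 26.5 ± 7.95 CPM (SD, n = 3 each), a 3.52-fold difference. Mrc1 fell by 1.82 ± 0.24 on the log2 scale (estimate ± SE), with an adjusted p of 0.00154 by edgeR's quasi-likelihood test.

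Siglec1 encodes sialoadhesin, a lectin that binds sialic acids on other cells and is also known as an interferon-inducible gene. It stood at 16.5, 19.2 and 17.1 CPM with IR-813 and at 2.34, 1.59 and 1.30 CPM with PSNPs. These were 368 to 413 reads against 25 to 51 reads, and the groups lay far apart. The means, 17.6 ± 1.45 and 1.75 ± 0.537 CPM, differed 10.1-fold. Its log2 fold change was −3.32 ± 0.22 (edgeR adjusted p = 0.000130), rank 77 from the lowest of 11679 tested genes.

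Pf4 encodes the secreted chemokine CXCL4, best known from platelets and also made by some tissue macrophages. It stood at 9.66, 13.2 and 14.6 CPM with IR-813 and at 1.38, 0.637 and 2.35 CPM with PSNPs. PSNPs replicate 3, the lowest library for Mrc1 and Siglec1, was the highest of the PSNPs libraries for Pf4. The mean was 12.5 ± 2.53 against 1.45 ± 0.858 CPM, an 8.57-fold difference, with a log2 fold change of −3.09 ± 0.39 (edgeR adjusted p = 0.00129). Markers of platelets and their precursors were near 0: the 7 listed genes in the table summed to 0.699 to 1.07 CPM with IR-813 and 0.372 to 0.626 CPM with PSNPs, and Ppbp, Gp5 and Gata1 were listed at 0.

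Of the enzymes, Cd38 encodes a surface enzyme that breaks down NAD and makes calcium-releasing messengers, and it is not restricted to macrophages. It stood at 10.5, 11.2 and 10.9 CPM with IR-813 and at 7.58, 7.27 and 6.42 CPM with PSNPs. The groups did not overlap, but the means, 10.9 ± 0.334 and 7.09 ± 0.604 CPM, differed 1.53-fold. Cd38 fell by 0.62 ± 0.12 on the log2 scale (edgeR adjusted p = 0.00722).

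F13a1 encodes the catalytic subunit of coagulation factor XIII, a transglutaminase that cross-links fibrin. It had 5, 4 and 8 reads with IR-813 and 2, 4 and 0 reads with PSNPs. These 17 reads against 6 gave a ratio of 2.59 per scaled library size, with an exact 95% interval from 0.973 to 8.02 that covers counting error only. The groups overlapped, and a difference was not detectable at this depth.

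**Figure D2:**
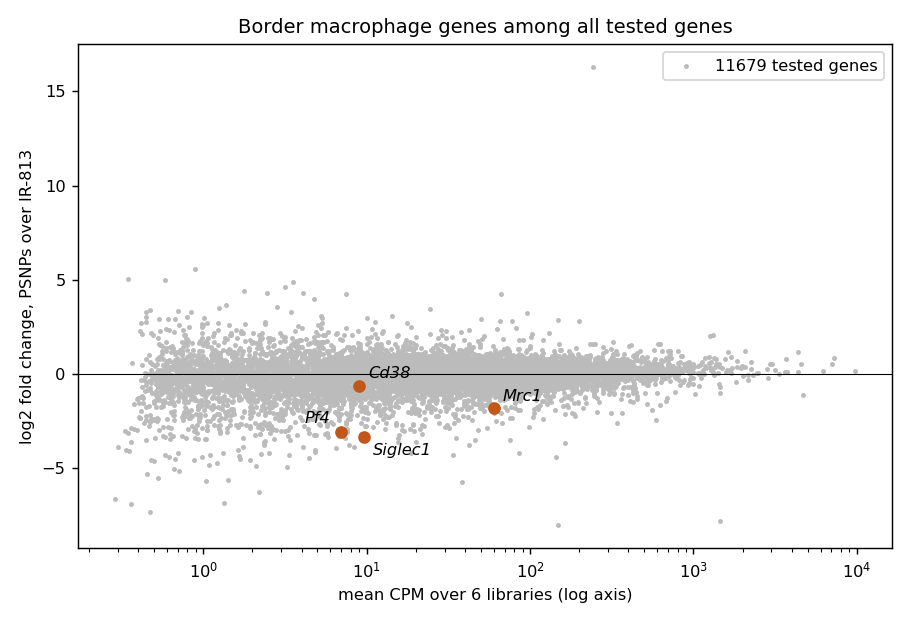
Log2 fold change of PSNPs over IR-813 against the mean CPM over 6 libraries (log axis) for 11679 tested genes (grey) and the 4 tested border macrophage genes (orange). Siglec1 and Pf4 rank 77 and 103 from the lowest log2 fold change, and Cd38 ranks 1954.

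Levels can be set against each other between genes only per length. The deposited log2 values, once unlogged with their pseudocount of 1 removed, were proportional to the counts within 0.05 log2 units in at least 99.1% of 10421 genes, up to a factor per gene and per library. The gene factor had a Spearman correlation of 0.501 with gene span, introns included, across 9698 genes, so its reading as a length is only weakly checked. On this unlogged scale with IR-813, Pf4 was highest (85.9 ± 18.2), followed by Mrc1 (17.7 ± 2.83), Cd38 (5.03 ± 0.153) and Siglec1 (2.59 ± 0.213), with no overlap between neighbours. With PSNPs, Pf4 (4.31 to 17.9) and Mrc1 (3.49 to 6.35) overlapped. Cd38 (3.06 to 3.48) all but met Mrc1, too close to rank them with a weakly checked gene factor. Siglec1 (0.197 to 0.343) remained below the others. Pf4's place rests on a gene factor of 0.0690 of the median gene's, while those of Mrc1, Siglec1 and Cd38 were 2.51, 3.23 and 1.03.

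Because the core macrophage genes were also lower in sum with PSNPs, the 4 genes were set against them. Per 1000 core macrophage reads, Mrc1 had 39.4, 40.8 and 39.9 reads with IR-813 and 15.5, 25.7 and 9.74 reads with PSNPs. Siglec1 had 6.45 to 8.46 reads with IR-813 and 0.706 to 1.31 reads with PSNPs, and Pf4 had 4.97 to 5.51 and 0.484 to 1.27 reads. The groups stayed apart for these 3 genes. Cd38 had 4.12 to 5.40 and 3.47 to 5.53 reads, so its groups overlapped.

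In the fit scaled to the core macrophage genes, 3 of the 4 genes were called lower, against 6.35% of all tested genes lower and 36.2% higher. The median over all tested genes in this fit was 0.49. Siglec1 fell by 2.83 ± 0.31, Pf4 by 2.63 ± 0.33 and Mrc1 by 1.24 ± 0.30 on the log2 scale, with edgeR adjusted p of 4.69e-07, 2.75e-06 and 0.00247. Cd38 was at −0.10 ± 0.27 (edgeR adjusted p = 0.770). The spread of the reference enters every gene, so these p-values are too small. An exact 2-sided permutation test of each ratio gave p = 0.1 for Siglec1, Pf4 and Mrc1, the smallest that 3 against 3 allows, and p = 0.7 for Cd38, or 0.133 and 0.7 after adjustment over the 4 genes.

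**Figure D3:**
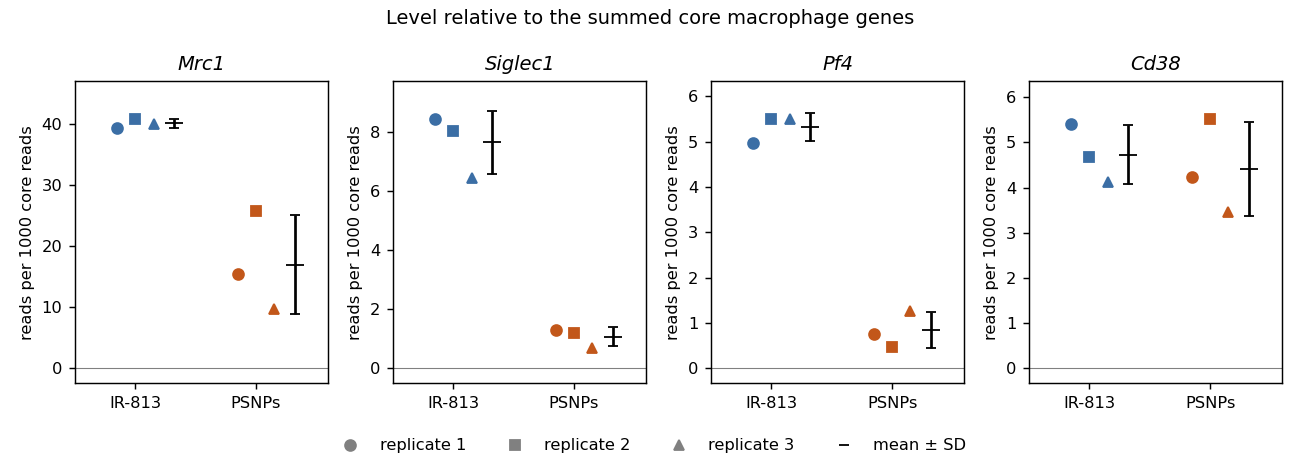
Reads of each gene per 1000 reads of the 22 core macrophage genes (linear axes); points are libraries, shaped by replicate, and bars are the mean ± SD of 3 libraries. Mrc1, Siglec1 and Pf4 stay apart between the groups and Cd38 overlaps.

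The core macrophage genes themselves were not uniform. Of 22, 12 were called lower, 1 higher and 9 did not pass, with a median log2 fold change of −0.58. Over all tested genes 20.1% were called lower and 20.9% higher. In the fit scaled to their own sum, 6 were called lower and 2 higher, beside 6.35% and 36.2% of all tested genes. Adgre1, which encodes the macrophage marker F4/80, fell by 1.23 ± 0.17, the inhibitory Fc receptor gene Fcgr2b by 1.24 ± 0.18 and the complement gene C1qb by 1.75 ± 0.26. Csf1r, the receptor on which both cell types depend, fell by 0.54 ± 0.15 (edgeR adjusted p = 0.0249), while Cyba, a subunit of the phagocyte NADPH oxidase, rose by 0.80 ± 0.20 (0.0190). The call for Csf1r was lost without IR-813 replicate 2 (adjusted p = 0.0780) or 3 (0.0810) or PSNPs replicate 2 (0.0662). That for Cyba was lost without IR-813 replicate 1 (0.0762) or 2 (0.0617).

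Other genes known from border macrophages differed in direction. Of 25 further genes listed, 20 were in the table and 15 were tested. Of these 15, 7 were called lower, 2 higher and 6 did not pass, with a median of −0.57. Over all tested genes 20.1% were called lower and 20.9% higher. The organic anion transporter gene Slco2b1 stood at 41.2 to 66.2 CPM with IR-813 and 11.4 to 13.6 CPM with PSNPs (−2.15 ± 0.19). The B-cell linker adaptor gene Blnk (−1.45 ± 0.16), the transcription factor gene Maf (−1.36 ± 0.18) and the interleukin-10 receptor gene Il10ra (−1.32 ± 0.22) followed, with edgeR adjusted p from 0.000332 to 0.00355 for these 4. Maf fell from 36.6 ± 4.07 to 14.2 ± 3.12 CPM, with no overlap.

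The folate receptor gene Folr2 fell from 12.7 ± 1.51 to 6.89 ± 1.58 CPM, and Tgfbi and the scavenger collectin gene Colec12 were at −0.68 ± 0.21 and −0.63 ± 0.20. The last 2 calls were weak. That for Tgfbi was lost without IR-813 replicate 1 or 2 or PSNPs replicate 1 or 2 (edgeR adjusted p from 0.0890 to 0.137). That for Colec12 was lost without IR-813 replicate 1 or 3 or any 1 PSNPs library (0.0510 to 0.0900), with a log2 fold change of −0.38 without IR-813 replicate 3. The genes called higher stayed under 3 CPM in every library: the chemokine receptor gene Ccr1 rose from 0.401 ± 0.270 to 2.05 ± 0.572 CPM, and Hpgd, a prostaglandin-degrading enzyme gene, from 0.916 ± 0.299 to 2.05 ± 0.198 CPM.

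Among those that did not pass, the endocytic adaptor gene Dab2 was at 143 to 179 CPM with IR-813 and 92.4 to 163 CPM with PSNPs. Lyve1 was at 0.940 to 1.57 and 1.17 to 1.25 CPM, and the lectin receptor gene Clec12a at 10.0 ± 2.74 and 14.4 ± 3.21 CPM. Relative to the core macrophage genes, 4 of the 15 were lower, namely Slco2b1, Blnk, Maf and Il10ra. Another 4 were higher, namely Clec12a, Hpgd, Cd72 and Ccr1. The median of the 15 was 0.01, beside 0.49 over all tested genes, of which 6.35% were called lower and 36.2% higher in that fit.

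**Figure D4:**
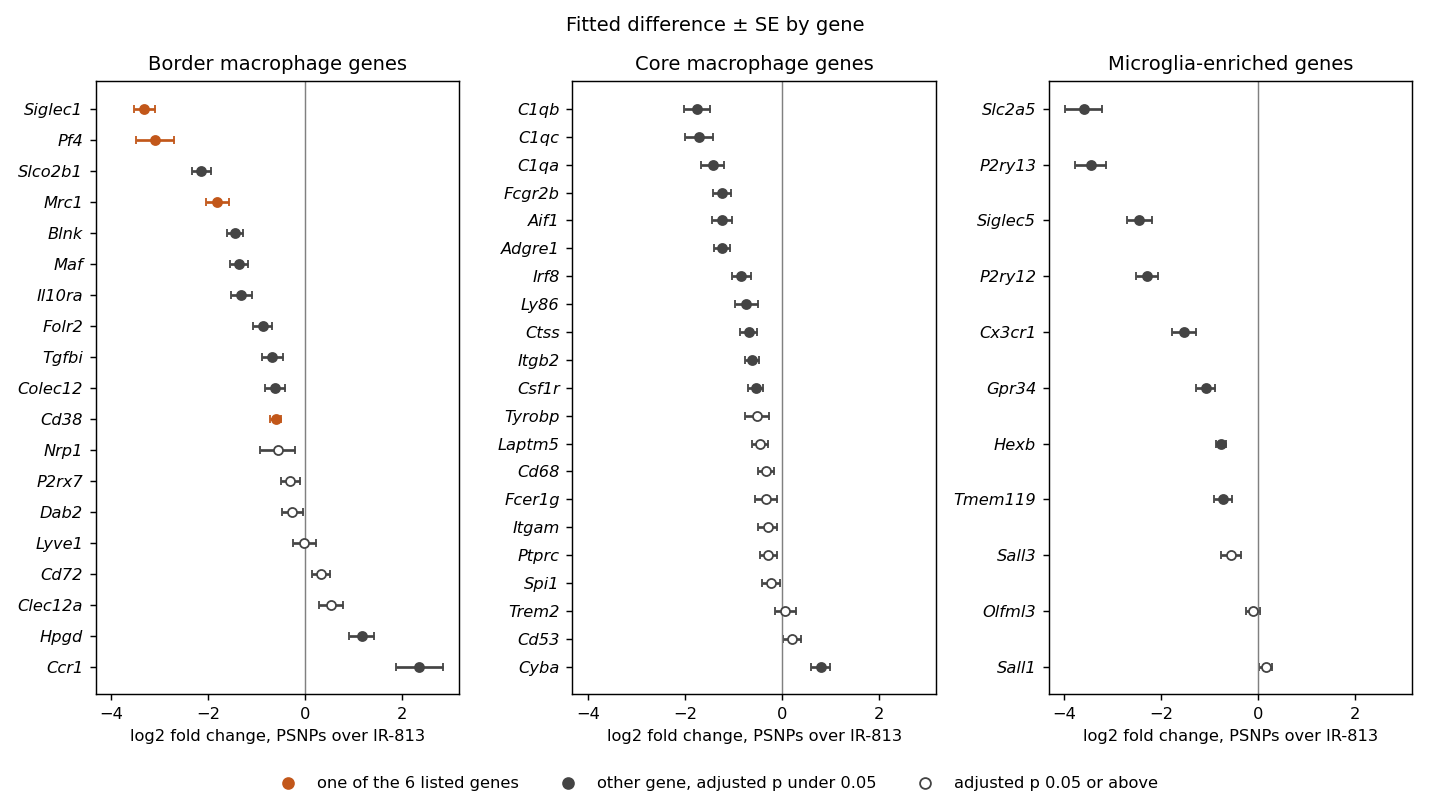
Fitted log2 fold change ± SE (bars) of PSNPs over IR-813 for tested border, core macrophage (21 of 22 shown) and microglia-enriched genes; filled points passed an adjusted p under 0.05, and orange points are 4 of the 6 listed genes. Siglec1 and Pf4 are the lowest of the border genes, and Cd38 lies at −0.62.

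Microglia-enriched genes were mostly lower. Of 11 tested, 8 were called lower, 0 higher and 3 did not pass, beside 20.1% lower and 20.9% higher over all tested genes. The median of the 11 was −1.08. Those that did not pass were Sall1 (0.15 ± 0.13, at 166 to 230 CPM), Sall3 (−0.57 ± 0.21) and Olfml3 (−0.11 ± 0.15). The purinergic receptor genes P2ry12 and P2ry13 stood at −2.30 ± 0.22 and −3.46 ± 0.31. Relative to the core macrophage genes, 5 of the 11 were called lower and 1 higher, with a median of −0.55. Over all tested genes in that fit, 6.35% were called lower and 36.2% higher, with a median of 0.49. In that fit P2ry12 and P2ry13 stood at −1.76 ± 0.32 and −2.99 ± 0.44. A fall beyond the core macrophage genes was thus not particular to the listed border genes. Nor was it particular to macrophage genes. In that fit 6 of 10 tested neuron markers were called lower and 0 higher (median −1.14). Of 12 oligodendrocyte-lineage markers 5 were lower and 1 higher (−0.47), and of 11 tested astrocyte markers 0 were lower and 7 higher (0.86). Whether the border list and the microglia list differ from each other was not tested.

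The relatives of each gene did not all share its direction. The counts below are of few genes each and stand beside 20.1% called lower and 20.9% called higher over all tested genes. No list was tested against these shares. Among 6 tested relatives of Mrc1 and Stab1 in the lectin and scavenger receptor families, 2 were lower and 3 higher. Mrc2, a paralog of Mrc1, fell from 21.1 ± 2.51 to 12.9 ± 1.68 CPM. The fatty acid scavenger receptor gene Cd36 rose from 0.569 ± 0.329 to 8.93 ± 1.43 CPM. Msr1, another scavenger receptor gene, stood at 27.3 to 39.7 CPM with IR-813 and 43.3 to 73.7 CPM with PSNPs (0.76 ± 0.22, edgeR adjusted p = 0.0314). The call for Msr1 was lost without IR-813 replicate 1 or 2 or PSNPs replicate 1 or 2, with adjusted p from 0.0509 to 0.111.

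Of 4 tested relatives of Siglec1, 3 were lower and 1 did not pass. Siglec5, which is also in the microglia-enriched list, fell from 4.94 ± 0.176 to 0.886 ± 0.355 CPM. Cd22, best known as an inhibitory receptor of B cells, had 181 reads over the IR-813 libraries and 3 over the PSNPs libraries, a ratio of 55.1 per scaled library size with an exact 95% counting interval from 18.6 to 269.7. The third was Mag, an adhesion gene of myelin, which is also one of the 12 oligodendrocyte-lineage markers, of which 11 were lower.

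Of 10 tested chemokine and receptor genes listed beside Pf4, 2 were lower, near the share over all tested genes, and 5 higher. Cxcl3, a neutrophil attractant, stood at 12.1, 12.8 and 6.15 CPM with IR-813 and at 0.939 to 1.47 CPM with PSNPs. Cxcl16, a chemokine that is also a scavenger receptor, rose from 76.8 ± 4.35 to 164 ± 19.6 CPM. Ackr3, a scavenging receptor for CXCL12, rose by 0.66 ± 0.15 (edgeR adjusted p = 0.0136), a call lost without IR-813 replicate 2 (0.0711).

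Of 11 tested relatives of Cd38 and genes of NAD metabolism, 3 were lower, 2 higher and 6 did not pass, near the shares over all tested genes. Bst1, the paralog of Cd38, moved the other way, from 0.964 ± 0.207 to 3.03 ± 0.785 CPM (1.65 ± 0.27, edgeR adjusted p = 0.00360). Trpm2, a calcium channel opened by ADP-ribose, a product of Cd38, fell from 12.7 ± 1.99 to 2.15 ± 0.672 CPM. The NAD kinase gene Nadk rose by 0.53 ± 0.07.

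Of 4 tested genes listed beside F13a1, 2 were lower and 2 did not pass. The transglutaminase gene Tgm1 fell from 24.8 ± 4.34 to 9.95 ± 0.899 CPM and the fibrinogen chain gene Fga from 0.779 ± 0.155 to 0.168 ± 0.133 CPM. Tissue transglutaminase, Tgm2, was at 0.41 ± 0.18 (edgeR adjusted p = 0.104, and 0.0316 without PSNPs replicate 2).

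Of 15 tested factors that keep macrophages alive and set their identity, 3 were lower, 2 higher and 10 did not pass, no larger a share than the 20.1% and 20.9% over all tested genes. Csf1, a ligand of the CSF1 receptor, was at 336 to 360 CPM with IR-813 and 312 to 379 CPM with PSNPs. Il34, the other ligand, was at 13.1 to 17.2 and 9.02 to 13.6 CPM, and passed, among the alternatives run, only without PSNPs replicate 3 (−0.60, edgeR adjusted p = 0.0103). The transcription factor gene Runx1 fell from 27.0 ± 5.30 to 10.2 ± 0.516 CPM, and Csf1r, given above, had the next smallest p-value of this list. Nr1h3, a sterol-sensing receptor gene, rose from 4.71 ± 0.709 to 7.38 ± 1.36 CPM, a call lost without IR-813 replicate 1 or 2 or PSNPs replicate 1 (edgeR adjusted p from 0.0892 to 0.126). The call for Csf1r depended on single libraries in the same way, as given with the core macrophage genes.

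Markers of other cells moved with the same contrast. Neuron markers fell in 7 of 10 tested, with the smallest p-values for Gad1 (−4.19 ± 0.17) and Celf4 (−3.42 ± 0.16), and summed to 386 to 400 CPM with IR-813 and 165 to 198 CPM with PSNPs. Oligodendrocyte-lineage markers, with the smallest p-values for Bcas1 (−1.90 ± 0.09) and Sox10 (−1.85 ± 0.13), summed to 7259 to 8419 and 4504 to 5215 CPM. Vascular and fibroblast markers fell in 3 of 7 tested, with the smallest p-values for Acta2 (−3.60 ± 0.24) and Pdgfrb (−0.60 ± 0.13). Of 11 tested astrocyte markers 5 were higher and 1 lower, with the smallest p-values for Aldh1l1 (from 31.0 ± 4.32 to 87.9 ± 1.16 CPM) and Fgfr3 (−0.67 ± 0.12). The 10 blood myeloid and lymphoid markers in the table summed to at most 0.212 CPM in any library, and 6 were listed at 0. The part of these cell types in the fall of the border macrophage genes was not tested.

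The genes closest in pattern to each tested gene were found by the root mean square difference of log2 CPM (prior count 2), centred over the 6 libraries. Closest to Mrc1 were the kinesin gene Kif5a (0.0914), Pnma3 (0.0918) and the cytokine gene Il16 (0.0950). Closest to Siglec1 were the opioid receptor gene Oprm1 (0.129), the apoptosis gene Hrk (0.174) and the neuronal transcription factor gene Myt1l (0.183). Closest to Pf4 were the vesicular acetylcholine transporter gene Slc18a3 (0.206), the neuropeptide gene Cck (0.212) and the matrix gene Matn4 (0.315). Closest to Cd38 were Mios (0.0309), the ceramide kinase gene Cerk (0.0313) and Atpaf1 (0.0330). All points share the same 6 libraries and their scaling, and the difference between the groups enters the measure. Shared regulation or cell origin of these genes was not tested. The prior count compresses genes with few reads: the fitted log2 fold change was −5.30 for Oprm1, at a mean of 0.0153 CPM with PSNPs, and −4.32 for Slc18a3, at 0.0501 CPM.

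Leaving out PSNPs replicate 3, the library that stood apart, gave −1.60 for Mrc1, −3.14 for Siglec1, −3.59 for Pf4 and −0.55 for Cd38, all called lower by edgeR (adjusted p from 1.41e-05 to 0.00268). On the deposited log2 scale Siglec1 was at −1.51, since the pseudocount of 1 is large beside its level there.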

How the data were processed

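RNA was counted in 6 libraries, 3 with IR-813 and 3 with PSNPs, grouped by sample title. The authors deposited one table of whole-number counts, with a row for each gene symbol. Per the submitters' processing notes, the build was mRatBN7.2 and bcl2fastq was used. Aligner, counter, annotation and strand: not given in the sources used here; therefore reads shared with overlapping or near-identical genes are uncertain. The authors also deposited log2 values per library, with a scaling that is not stated per the labels; they were used for levels between genes and as an alternative. Columns named con and NPS were joined to samples through each library's own deposited file.

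After filterByExpr and TMM scaling, the quasi-likelihood test of edgeR 4.0.16 (R 4.3.3) was run, with Benjamini-Hochberg adjustment over all 11679 tested genes and a call at an adjusted p under 0.05. Standard errors (SE) were taken as |log2 fold change| over the root of F. A further fit replaced each library size by the summed counts of 22 core macrophage genes. Alternatives used limma 3.58.1, DESeq2 1.42.0, other scalings and filters, and left out each library in turn. Names come from the RefSeq table of assembly GRCr8.

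The 6 genes and all gene lists were chosen with earlier results of these data known. The rule for named genes takes all 6 listed genes, the 4 smallest p-values of the other border list and of the core list, and the 2 smallest of every other list. It also takes the 3 genes closest in pattern to each tested gene, and lets other listed genes be given as values beside the count of their list. 1 gene that this rule takes from the core list is not reported here.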

Additional observations from a re-analysis of the deposited data

How the results depend on the processing

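All 4 tested genes kept their direction and their call under each of 13 alternatives, among them the replicate block, DESeq2, limma on the deposited log2 values and leaving out each library. The median over the 4 genes was −2.46, and −1.58 by limma on the deposited log2 values, where the pseudocount shrinks low genes. Relative to the core macrophage genes, Cd38 changed sign, to 0.0542 with their geometric mean as the reference and to 0.000771 when IR-813 replicate 1 was left out. Over all single libraries left out, it ran from −0.29 to 0.0396, the latter without PSNPs replicate 3. Leaving out 1 library at a time gave 1473 to 3478 genes lower (2351 with all libraries) and 1339 to 3591 higher (2439), lowest without IR-813 replicate 2 (1416 higher without IR-813 replicate 1) and highest without PSNPs replicate 3, and 0 to 1 core macrophage genes higher. Scaling by library size alone gave 59.5% of calls lower, in place of 49.1%.

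Replicate numbers are shared between the groups. The correlations of same-numbered deviations were −0.01, 0.01 and 0.12, and those of unlike-numbered ones ran from −0.17 to 0.18. With 3 libraries per group, these values cannot decide whether the numbers pair the libraries. With the replicate block, 2124 genes were lower and 2035 higher. The log2 fold changes were −1.84 for Mrc1, −3.34 for Siglec1, −3.15 for Pf4 and −0.62 for Cd38. Signs also changed for genes near 0: Lyve1 was at −0.02, and ran from −0.185 to 0.196 over the libraries left out, with 0.00236 without PSNPs replicate 2. Csf1 was at −0.01, and at 0.00099 with no filter, 1.9e-05 by DESeq2, 0.0207 without IR-813 replicate 3 and from −0.0788 to 0.0634 over the libraries left out. Except where stated, the cause was not tested. Depth limits F13a1, with at most 8 reads per library.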
